A study of Mus musculus with 15 samples.

Results

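A set of 10 macrophage markers, out of the 18131 genes of the count table, was followed through mouse liver RNA. The genes were chosen by symbol and not by their values. Resident Kupffer cell markers were Clec4f, Vsig4, Timd4, Marco and Cd5l, and general macrophage markers were Adgre1, Csf1r, Cd68, Lyz2 and Pla2g7. RNA selected for poly(A) from livers of mice labelled Sirt3 knockout or wild type was sequenced after feeding with a high salt or a normal salt diet. Of the 15 libraries 12 form 4 groups of 3: labelled knockout fed high salt (KO HSD), labelled knockout fed normal salt (KO NSD), wild type fed high salt (WT HSD) and wild type fed normal salt (WT NSD). An additional wild-type set, titled without a genotype, holds 2 libraries on high salt and 1 on normal salt. Per the labels, high salt chow held 8% NaCl and normal chow 0.4%, and all mice were male C57BL/6 mice in month 6 after birth that entered the study at 6 weeks of age. The labels give the feeding both as 4 months and as 8 weeks. The genotype label is Sirt3-/-, with the allele not given in the sources used here. Nothing says that the libraries of a group came from separate animals, so p-values cover the spread between libraries, part or all of which may be technical.

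Kupffer cells are the macrophages that live in the liver sinusoids, where they clear particles, microbes and old red cells from portal blood. They descend largely from embryonic precursors, renew themselves in place, and keep an identity that depends on the factors PU.1, LXR-alpha and SMAD4 and on Notch, TGF-beta and BMP signals from endothelial and stellate neighbours. When Kupffer cells are lost, blood monocytes enter the niche and take on most of the resident program, with Timd4 among the last genes to appear. General markers are shared by Kupffer cells, monocyte-derived macrophages and, for some of them, monocytes and neutrophils.

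Library totals lay between 15726897 and 19539406 expected counts, and every member had at least 8 expected counts in every library. Sirt3 itself was read in all libraries labelled knockout, at 62.6, 68.9 and 56.7 CPM (counts scaled to library size) in KO HSD and 64.4, 43.6 and 43.7 CPM in KO NSD, against 84.1, 65.7 and 65.5 CPM in WT HSD and 49.8, 52.9 and 53.3 CPM in WT NSD. The gene-level counts therefore do not check the genotype label, and the word knockout is used here as the label's. Libraries KO NSD 1 and KO NSD 3 went against the label male. Their 4 Y-linked genes summed to 2.57 and 1.81 CPM, against 64.1 to 109 CPM in the other 13 libraries. Their 8 female-biased liver genes summed to 3500 and 2970 CPM. Among the other 13 libraries these genes summed to 545 CPM in KO HSD 1, beside 106 CPM of Y-linked genes, and to 0.514 to 25.1 CPM in the rest. KO NSD 2 is thus the lone KO NSD library with Y-linked transcripts at the level of the rest, and results for the markers and the related macrophage lists in KO NSD are also given with it as the lone library of its group, whose spread is then taken from the other groups. The labelled tissue had its defining cells, since 8 hepatocyte markers summed to between 98200 and 150000 CPM in the 15 libraries and all 10 macrophage members were above 0 in each.

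The start regions of 4 members are shown because their levels are compared most closely in what follows. Each is the stretch of 250 bases just before the transcript start that RefSeq's entry uses, which for Timd4 and Pla2g7 lies inside the outer bounds of the gene given with their values. The letters are read 5′ to 3′ on the gene's strand from RefSeq on GRCm38.p6. Vsig4 was taken from chrX:96293439-96293688 (minus strand), Timd4 from chr11:46810549-46810798 (plus strand), Lyz2 from chr10:117282273-117282522 (minus strand) and Pla2g7 from chr17:43568201-43568450 (plus strand). Capitals mark a PU.1 core (GAGGAA) or an RBPJ core (TGGGAA), searched on both strands.
Vsig4: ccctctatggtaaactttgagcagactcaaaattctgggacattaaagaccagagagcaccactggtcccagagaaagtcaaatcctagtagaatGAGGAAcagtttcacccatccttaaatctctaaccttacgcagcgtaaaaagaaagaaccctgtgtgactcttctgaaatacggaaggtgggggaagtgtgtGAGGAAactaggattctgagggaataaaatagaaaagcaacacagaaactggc
Timd4: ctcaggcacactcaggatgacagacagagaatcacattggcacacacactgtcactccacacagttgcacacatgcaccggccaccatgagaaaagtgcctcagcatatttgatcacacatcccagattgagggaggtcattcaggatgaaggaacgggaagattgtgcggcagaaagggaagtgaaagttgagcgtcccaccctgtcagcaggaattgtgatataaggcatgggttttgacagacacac
Lyz2: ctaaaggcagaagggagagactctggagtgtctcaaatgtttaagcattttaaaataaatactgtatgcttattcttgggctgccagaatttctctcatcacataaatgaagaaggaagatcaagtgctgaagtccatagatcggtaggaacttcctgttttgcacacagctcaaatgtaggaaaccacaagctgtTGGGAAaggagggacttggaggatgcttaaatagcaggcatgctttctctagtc
Pla2g7: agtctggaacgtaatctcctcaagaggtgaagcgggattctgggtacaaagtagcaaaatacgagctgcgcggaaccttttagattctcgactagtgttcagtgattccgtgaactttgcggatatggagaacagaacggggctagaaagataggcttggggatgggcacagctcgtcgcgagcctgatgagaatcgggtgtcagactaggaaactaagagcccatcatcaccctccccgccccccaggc
Vsig4 held the PU.1 core at positions -155 and -53 from the start and Lyz2 an RBPJ core at -54, while Timd4 and Pla2g7 held neither. Among the 8 members whose start region was searched, 4 held the PU.1 core, against 23.3% of all 32851 windows of this length. Start regions of Adgre1 and Csf1r were not searched. The RBPJ core was in 4 of the 8, against 21.6% of all windows. These are matches of letters and not measured sites.

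The members differed widely in level. FPKM values, fragments per length and library total as deposited, allow a comparison between genes. By median level over the 15 libraries the order was Lyz2 (37.8 FPKM), Cd5l (23.5 FPKM), Clec4f (15.5 FPKM), Vsig4 (9.50 FPKM), Csf1r (7.58 FPKM), Cd68 (7.48 FPKM), Marco (4.32 FPKM), Adgre1 (2.62 FPKM), Timd4 (1.90 FPKM) and Pla2g7 (1.82 FPKM). Csf1r and Cd68 could not be ordered, since Csf1r was the higher in 9 of 15 libraries, and Timd4 lay above Pla2g7 in 11 of 15. Clec4f was above Vsig4 in 15 of 15 libraries and Lyz2 above Cd5l in 14 of 15. On the CPM scale, used from here on for the same gene between libraries, the highest library exceeded the lowest 5.22-fold for Csf1r, 5.97-fold for Clec4f, 6.08-fold for Cd5l, 21.7-fold for Pla2g7, 30.1-fold for Timd4 and 103-fold for Marco. KO NSD 1 was the highest library for 10 of 10 members and KO NSD 3 was among the top 2 for 8 of 10. WT NSD 3 was among the lowest 3 libraries for 8 of 10 and WT NSD 1 for 7 of 10.

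**Figure D1:**
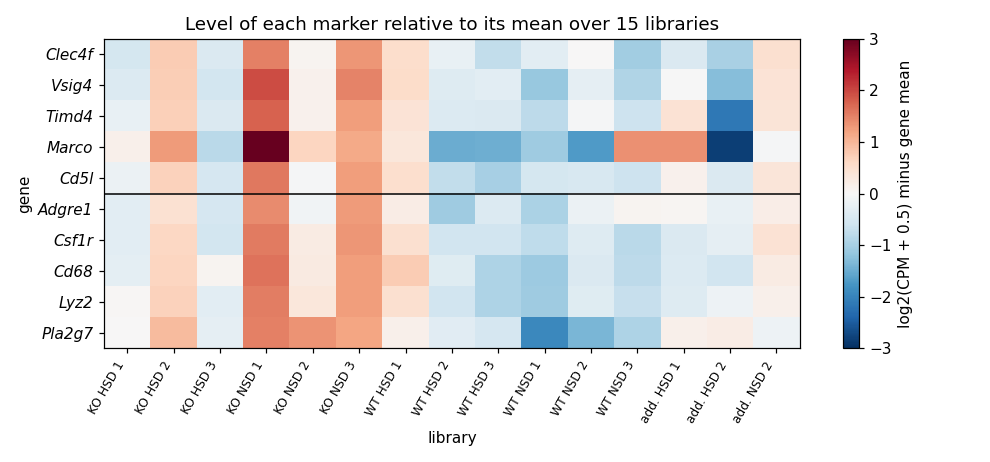
Level of each marker (rows; resident above the line, general under it) in each of the 15 libraries (columns), as log2(CPM + 0.5) minus the gene's mean over the libraries. KO NSD 1 and KO NSD 3 are red in all rows, KO NSD 2 is pale for most rows but red for Pla2g7, and additional HSD 2 is blue for Timd4 and Marco.

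Whether livers labelled knockout differ from wild type on the normal diet is the first comparison of the design. Each of the 10 markers averaged higher in KO NSD than in WT NSD livers, by 2.58-fold to 9.43-fold (51.2% of all genes had a log2 fold change above 0), and 1 of the 10, Pla2g7, passed the test over all genes. This is read against a background of 0.238% of 13051 genes called higher in the same comparison (0.414% in either direction) by edgeR's quasi-likelihood test at an adjusted p of 0.05. For 8 of 10 markers the 3 KO NSD libraries lay above the 3 WT NSD libraries without overlap, as they did for 9.95% of all genes. At an unadjusted p under 0.05, 9 of 10 markers were higher, as were 8.64% of all genes. The median log2 fold change was 1.84 over the members, 1.84 over the 5 resident markers and 1.84 over the 5 general ones, and 0.008 over all genes tested. The additional wild-type library on normal salt is not part of WT NSD. It read above KO NSD 2 for Clec4f (63.6 against 47.8 CPM), Cd5l (68.8 against 52.1 CPM) and Csf1r (46.3 against 40.4 CPM). It was also above KO NSD 2 for Vsig4, Timd4 and Adgre1, and under it for Marco, Cd68, Lyz2 and Pla2g7. In RNA from whole liver, more macrophages and more marker RNA in each of them cannot be told apart. Nor can labelled genotype and sex be told apart in KO NSD 1 and KO NSD 3, whose Y-linked transcripts were low.

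Gene positions are those of RefSeq on GRCm38.p6. Among the resident markers, Clec4f (Entrez gene 51811, chr6:83644542-83656116) encodes a C-type lectin found in mice on Kupffer cells and hardly elsewhere. It read 130, 47.8 and 115 CPM in KO NSD livers, against 36.5, 46.1 and 21.7 CPM in WT NSD livers. KO NSD 2 lay just above the highest WT NSD library. The means were 97.4 ± 43.6 and 34.7 ± 12.3 CPM (SD, n = 3 each), a log2 fold change of 1.5 ± 0.49 (SE) with an adjusted p of 0.165. Vsig4 (Entrez gene 278180, chrX:96247201-96293438), the complement receptor CRIg with which Kupffer cells take up opsonised bacteria, read 61.0, 16.7 and 43.7 CPM in KO NSD livers, against 6.69, 12.5 and 7.96 CPM in WT NSD livers. The groups did not overlap, and the difference was 2.17 ± 0.52 on the log2 scale (adjusted p = 0.0763). Timd4 (Entrez gene 276891, chr11:46810786-46844333) encodes the phosphatidylserine receptor TIM-4, with which long-lived resident macrophages take up dying cells. It read 13.9, 4.15 and 9.57 CPM in KO NSD livers, against 1.94, 3.59 and 2.23 CPM in WT NSD livers, with KO NSD 2 again nearest to wild type (log2 fold change 1.84 ± 0.48, adjusted p = 0.088). Cd5l (Entrez gene 11801, chr3:87357881-87371074) encodes a secreted scavenger protein of tissue macrophages, also called AIM. Its level was 162, 52.1 and 128 CPM in KO NSD livers, against 37.3, 38.3 and 34.6 CPM in WT NSD livers. The wild-type values were nearly level, at 36.7 ± 1.9 CPM against 114 ± 56.4 CPM in KO NSD, and the log2 fold change was 1.65 ± 0.48 (adjusted p = 0.126).

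Marco (Entrez gene 17167, chr1:120474538-120505024), a scavenger receptor with a collagen-like stalk that binds bacteria and particles, was the least regular resident marker. It read 71.5, 12.7 and 17.9 CPM in KO NSD livers, against 3.49, 2.09 and 21.2 CPM in WT NSD livers. WT NSD 3 stood above KO NSD 2 and KO NSD 3, so the groups overlapped, and the log2 fold change of 1.95 had an SE of 1.06 (adjusted p = 0.469). Without WT NSD 3 it was 3.60, and without KO NSD 1 it was 0.76. WT NSD 3 was among the lowest 3 libraries for 8 of the 10 markers, so its Marco level did not go with those 8. Adgre1 was the other exception, at 8.20 CPM the highest of the 3 WT NSD libraries.

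Of the general markers, Csf1r (Entrez gene 12978, chr18:61105572-61131139) encodes the receptor through which CSF1 and IL-34 keep macrophages alive. It read 101, 40.4 and 86.9 CPM in KO NSD livers, against 19.8, 26.0 and 19.4 CPM in WT NSD livers, without overlap (log2 fold change 1.82 ± 0.42, adjusted p = 0.0738). Cd68 (Entrez gene 12514, chr11:69664213-69666170) encodes a lysosomal glycoprotein of phagocytes and read 35.4, 13.5 and 26.8 CPM in KO NSD livers, against 4.91, 7.99 and 6.21 CPM in WT NSD livers. All 3 KO NSD libraries were above all 3 WT NSD libraries, at 2.00 ± 0.47 on the log2 scale (adjusted p = 0.0756). Adgre1 (Entrez gene 13733, chr17:57358581-57483529), which encodes the F4/80 antigen used to stain mouse macrophages, read 21.4, 7.20 and 19.4 CPM in KO NSD livers, against 3.77, 6.84 and 8.20 CPM in WT NSD livers. KO NSD 2 lay inside the wild-type range, and the log2 fold change was 1.37 ± 0.47 (adjusted p = 0.185).

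Lyz2 (Entrez gene 17105, chr10:117277541-117282272), the macrophage and neutrophil lysozyme, read 117, 50.8 and 96.3 CPM in KO NSD livers, against 18.9, 30.9 and 24.6 CPM in WT NSD livers, without overlap (log2 fold change 1.84 ± 0.42, adjusted p = 0.0726). Its counts share reads with Lyz1, a near-identical lysozyme gene of Paneth cells. Lyz2 alone was a whole number in 0 of 15 libraries, whereas Lyz1 and Lyz2 together were whole to within 0.01 in 15 of 15, and Lyz1 held between 9.16% and 19.0% of their sum. The split between the genes is therefore uncertain, and the sum, which is not, was 134, 58.0 and 107 CPM in KO NSD livers, against 23.3, 34.0 and 27.7 CPM in WT NSD livers.

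Pla2g7 (Entrez gene 27226, chr17:43567994-43612202) encodes a secreted phospholipase, platelet-activating factor acetylhydrolase, made by macrophages and other leukocytes. It read 9.94, 8.86 and 7.81 CPM in KO NSD livers, against 0.457, 0.927 and 1.45 CPM in WT NSD livers. All 3 KO NSD libraries stood at a similar level, from 160 to 201 expected counts each, and the 3 WT NSD libraries held 8 to 24 expected counts. The additional wild-type libraries, which are not in this comparison, all read above WT NSD. They read 2.79 CPM on normal salt and 3.58 and 3.78 CPM on high salt. Pla2g7 rose 9.43-fold (8.87 ± 1.06 CPM in KO NSD and 0.944 ± 0.495 CPM in WT NSD, SD, n = 3 each; log2 fold change 3.24 ± 0.43, adjusted p = 0.00929). The call was lost without WT NSD 1 (2.91, adjusted p = 0.0589) and without WT NSD 2 (3.23, adjusted p = 0.0987). With KO NSD 2 as the lone KO NSD library the log2 fold change was 3.21 (adjusted p = 0.186, with 1 library in the group and the spread taken from the other groups).

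**Figure D2:**
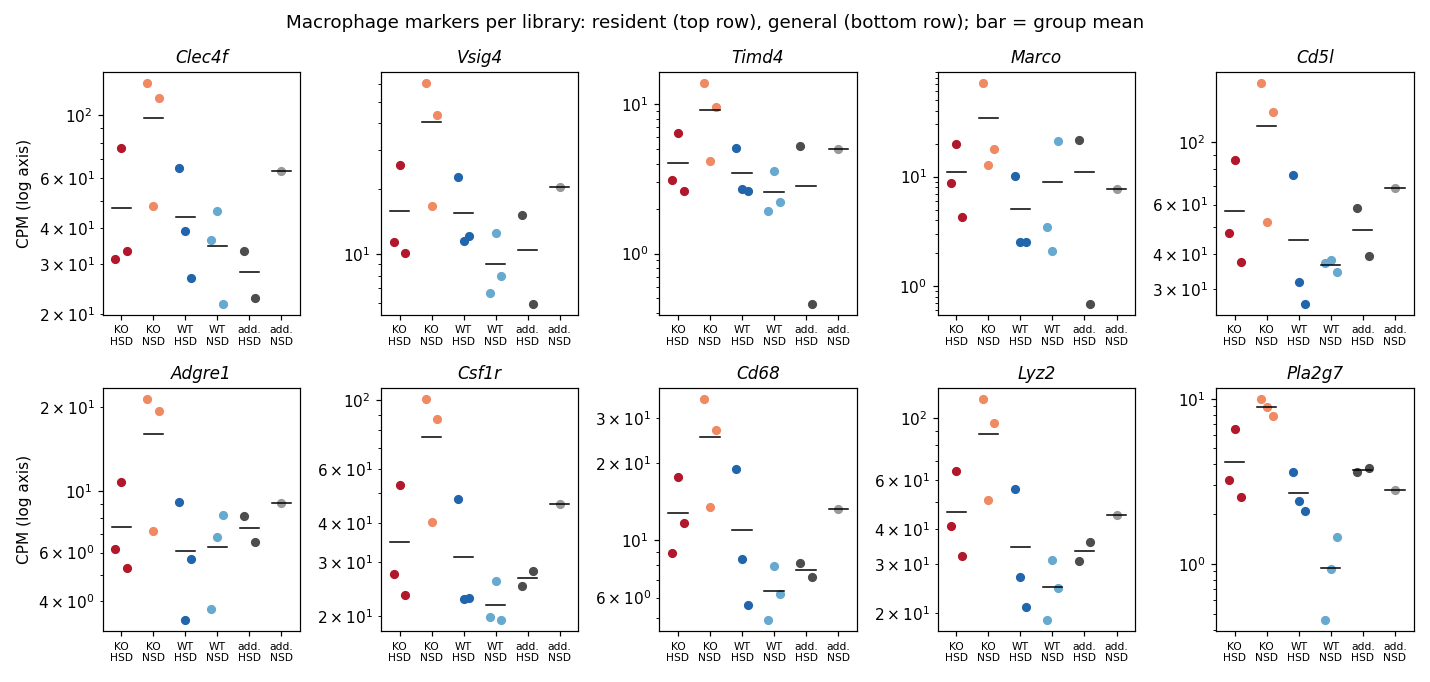
Level of each marker in CPM (log axis) in every library, by group, with resident markers in the top row and general markers in the bottom row; points are libraries and bars are group means. For most markers 2 of the 3 KO NSD points lie well above the third, while the 3 KO NSD points of Pla2g7 lie together between 7.81 and 9.94 CPM.

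The spread among the KO NSD libraries set Pla2g7 apart from the other markers. KO NSD 2 had 99.8% of the mean Pla2g7 level of KO NSD 1 and KO NSD 3. For the other 9 markers it had between 28.4% (Marco) and 47.6% (Lyz2) of that mean, and 35.4% for Timd4 and 39.0% for Clec4f. KO NSD 2 is also the library with Y-linked transcripts. Set over the WT NSD mean, it read 9.38-fold for Pla2g7, 2.12-fold for Cd68, 2.05-fold for Lyz2, 1.86-fold for Csf1r, 1.85-fold for Vsig4 and 1.15-fold for Adgre1. It lay above all 3 WT NSD libraries for 8 of 10 markers, the exceptions being Marco and Adgre1. Against the additional wild-type library on normal salt, it was higher only for Marco, Cd68, Lyz2 and Pla2g7. With KO NSD 2 alone in the group, 10 of 10 log2 fold changes were above 0 and their median was 0.77. The share of all genes is given for neither of these counts, so both only describe the markers. Without KO NSD 2, edgeR called 420 genes and 8 of the 10 markers, all but Clec4f and Marco. That fit sets only libraries low in Y-linked transcripts against WT NSD, so labelled genotype and sex cannot be told apart in it. DESeq2 on the 12 libraries called 661 genes and 8 markers, all but Marco and Adgre1.

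Markers of other cells moved with the KO NSD group as well. Neutrophil markers were higher for 12 of 13 genes, 5 of them called, while 51.2% of all genes were above 0 and 0.238% were called higher. They summed to 275, 94.9 and 143 CPM in KO NSD livers, against 12.6 to 27.7 CPM in WT NSD livers, where 3 of the 13 were at 0 in WT NSD 3. Lyz2, Itgam and other general myeloid genes are also made by neutrophils. Markers of T and NK cells summed to 8.19 to 19.0 CPM in KO NSD livers and 6.75 to 10.8 CPM in WT NSD livers. Of 10 such genes tested, 9 were above 0, with a median log2 fold change of 1.37 and 0 called. At an unadjusted p under 0.05 by edgeR, 7 were higher, as were 8.64% of all genes, and 1 was lower. Sinusoidal endothelial markers summed to 164 to 322 CPM in KO NSD and 128 to 226 CPM in WT NSD, stellate cell markers to 160 to 267 CPM and 164 to 220 CPM in the same order of groups, and hepatocyte markers to 132000 to 145000 CPM in KO NSD and 115000 to 122000 CPM in WT NSD. Median log2 fold changes were 0.49 for endothelial (9 of 9 above 0), 0.05 for stellate (6 of 9) and 0.16 for hepatocyte markers (6 of 8). With KO NSD 2 as the lone KO NSD library, the medians were 0.61 for T and NK cell markers and -0.04 for endothelial markers. In that fit they were -0.63 for stellate markers (0 of 9 above 0) and 0.21 for hepatocyte markers. The part of these other cells in the marker differences was not tested. Neutrophil markers had a median log2 fold change of 4.32, and of 3.42 with KO NSD 2 as the lone KO NSD library, where 12 of 13 were above 0 and 0 called.

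On high salt the same genotypes gave closer values. The 10 markers were again all above 0 in KO HSD over WT HSD livers, but by a median log2 fold change of 0.24, against -0.015 over all genes, with a range of 0.03 for Vsig4 to 1.11 for Marco, while 47.2% of all genes were above 0. By edgeR 0 of 10 markers and 0 of 13051 genes (0% called) passed, with 603 genes (4.62%) and 0 markers at an unadjusted p under 0.05, and DESeq2 called 29 genes and 0 markers. For 0 of 10 markers the KO HSD libraries lay wholly above the WT HSD libraries, against 4.08% of all genes. Clec4f read 31.1, 76.8 and 33.4 CPM in KO HSD livers, against 65.3, 39.0 and 26.8 CPM in WT HSD livers. The groups overlapped, and KO HSD 2 and WT HSD 1 stood above their groups for 10 of 10 markers. Pla2g7 read 3.21, 6.57 and 2.55 CPM in KO HSD livers, against 3.58, 2.4 and 2.09 CPM in WT HSD livers, an overlap with a log2 fold change of 0.61 ± 0.39 (adjusted p = 1). Without KO HSD 2 the median of the members was -0.095, and without WT HSD 1 it was 0.77.

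**Figure D3:**
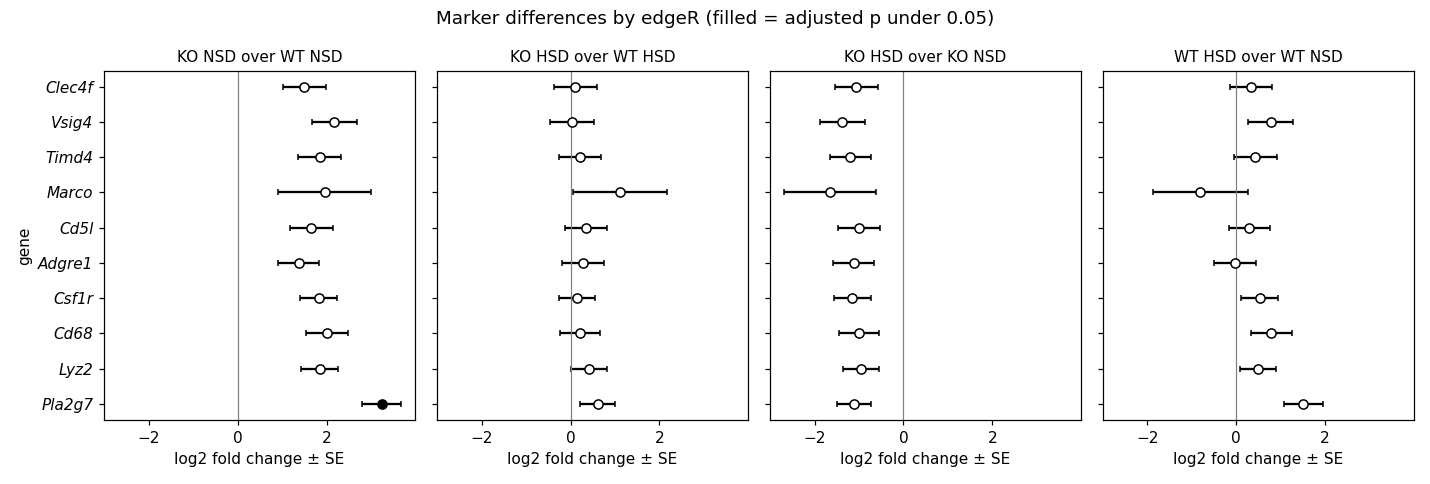
Log2 fold change with its standard error for each marker in 4 comparisons, by edgeR's quasi-likelihood test on 12 libraries; a filled point has an adjusted p under 0.05. Pla2g7 in KO NSD over WT NSD, at 3.24, is the filled point; all 10 points lie right of 0 in both comparisons of KO with WT, and left of 0 in KO HSD over KO NSD.

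The effect of high salt was first asked within the wild type. In WT HSD over WT NSD livers, 8 markers were above 0 and 2, Marco (-0.81) and Adgre1 (-0.03), were below it, with a median of 0.46 against 0.018 over all genes, of which 53.7% were above 0. By edgeR 0 markers and 0 genes (0% called) passed, with 584 genes (4.47%) and 1 marker at an unadjusted p under 0.05, while DESeq2 called 9 genes and 0 markers. In the 6 main wild-type libraries with the replicate number as a block, 1 gene and 0 markers passed. The marker at an unadjusted p under 0.05 in the main edgeR fit was Pla2g7. It read 3.58, 2.4 and 2.09 CPM in WT HSD livers, against 0.457, 0.927 and 1.45 CPM in WT NSD livers. All 3 WT HSD libraries were above all 3 WT NSD libraries, as for 3.82% of all genes, and the other 9 markers were not separated upwards. The additional wild-type library on normal salt read 2.79 CPM of Pla2g7, inside the WT HSD range. The Pla2g7 log2 fold change was 1.51 ± 0.44 (unadjusted p = 0.00424, adjusted p = 1), from 42 to 66 expected counts in WT HSD and 8 to 24 in WT NSD. Timd4, by contrast, read 5.10, 2.69 and 2.64 CPM in WT HSD livers and 1.94, 3.59 and 2.23 CPM in WT NSD livers, which overlapped. Without WT HSD 1 the median of the 10 markers was 0.003.

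Within the labelled knockout, all 10 markers were below 0 in KO HSD over KO NSD livers, from -1.65 for Marco to -0.95 for Lyz2, with a median of -1.12 against -0.002 over all genes, of which 50.4% were below 0. By edgeR 0 markers and 0 genes passed (0% called; adjusted p of the markers between 0.502 and 0.802), with 1051 genes at an unadjusted p under 0.05. At that unadjusted threshold 8 of 10 markers were lower, as were 5.50% of all genes. Csf1r read 27.4, 53.2 and 23.3 CPM in KO HSD livers, against 101, 40.4 and 86.9 CPM in KO NSD livers, and Vsig4 read 11.4, 25.7 and 10.2 CPM in KO HSD livers, against 61.0, 16.7 and 43.7 CPM in KO NSD livers. In both, KO HSD 2 was above KO NSD 2, so the groups overlapped. Pla2g7 was the 1 marker whose KO HSD libraries (3.21, 6.57 and 2.55 CPM) lay wholly under the KO NSD libraries (9.94, 8.86 and 7.81 CPM), as did 5.75% of all genes (log2 fold change -1.12 ± 0.38, adjusted p = 0.502). With KO NSD 2 as the lone KO NSD library, the median of the members was -0.07, Cd5l and Adgre1 turned to 0.15 and 0.06, and Pla2g7 stayed at -1.09. Mean levels in KO HSD were thus close to those of KO NSD 2, and under those of KO NSD 1 and KO NSD 3, for the markers other than Pla2g7.

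The difference between the salt effects (labelled knockout minus wild type) was tested directly. It was below 0 for 10 of 10 markers and 52.7% of all genes, with a median of -1.53 on the log2 scale, and 0 markers and 0 genes (0%) were called by edgeR, with 706 genes at an unadjusted p under 0.05. At that threshold 6 of 10 markers were lower, against 3.37% of all genes. Pla2g7 had the largest difference among the markers, -2.63 ± 0.58 (unadjusted p = 0.000598, adjusted p = 0.835 by edgeR), and DESeq2 called it among 10 genes (adjusted p = 0.0292). Vsig4 followed at -2.15 ± 0.71 (adjusted p = 0.835). The difference uses the same libraries as the contrasts before it, so it is not a separate line of evidence. With KO NSD 2 as the lone KO NSD library the median was -0.53, Marco and Adgre1 were above 0, and Pla2g7 was at -2.60 (adjusted p = 1).

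In the additional wild-type set, normal salt has a lone library, whose spread was taken from the other groups. High salt libraries read lower than it for 7 of 10 markers in both of 2 libraries, against 38.9% of all genes, and higher for 1, Pla2g7, against 37.5%. Clec4f read 33.2 and 22.8 CPM on high salt, against 63.6 CPM on normal salt, a log2 fold change of -1.18 ± 0.67 (adjusted p = 0.457). Of the 10 markers 0 were called, and of 13864 genes 3 (0.0216%). The salt effect of this set differed from that of the main wild type by a median of -1.17 over the markers, with 0 markers and 0 genes (0%) called and adjusted p of the markers between 0.404 and 0.9. At an unadjusted p under 0.05 that difference held 1801 genes (13%) and 0 markers. For 8 of 10 markers, all but Adgre1 and Pla2g7, the 2 wild-type sets pointed in opposite directions, and neither direction passed a test.

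Resident markers were then set against general markers in each library, as the mean log2(CPM + 0.5) of the 5 resident genes minus that of the 5 general genes. It was 0.76, 0.07 and 0.33 in KO NSD livers, against 0.70, 0.35 and 0.56 in WT NSD livers, or 0.39 ± 0.35 and 0.54 ± 0.18 (SD, n = 3 each). The groups overlapped, and both sets of markers were higher in KO NSD: the resident mean was 5.24 ± 0.90 in KO NSD and 3.54 ± 0.20 in WT NSD, and the general mean 4.85 ± 0.58 in KO NSD and 3.00 ± 0.34 in WT NSD. On high salt the difference was 0.23, 0.46 and 0.06 in KO HSD livers, against 0.35, 0.24 and 0.17 in WT HSD livers, so the 2 groups were centred alike (0.25 ± 0.20 and 0.25 ± 0.09). WT HSD was lower than WT NSD by 0.28, and by 0.11 when Pla2g7 was left out of the general markers. The general mean in KO NSD also holds Pla2g7, whose log2 fold change over WT NSD, 3.24, was the largest of the 10 markers. No p is given for these scores, because they summarise chosen genes.

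**Figure D4:**
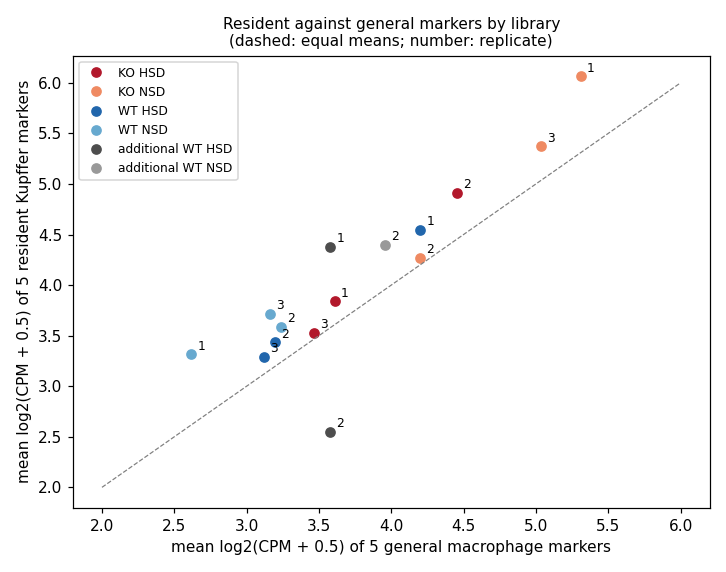
Mean log2(CPM + 0.5) of the 5 resident Kupffer markers against that of the 5 general macrophage markers, a point for each library; the number is the replicate and the dashed line marks equal means. Points run along the line from WT NSD 1 to KO NSD 1, and additional HSD 2 lies under it with a general mean of 3.58 and a resident mean of 2.55.

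The library farthest from the common line was additional HSD 2. Its general mean was 3.58, the same as that of additional HSD 1, but its resident mean was 2.55 against 4.38 in additional HSD 1. The resident genes that differed were Timd4 (0.461 CPM in HSD 2 and 5.25 CPM in HSD 1), Marco (0.691 and 21.4 CPM in the same libraries) and Vsig4 (5.95 and 15.1 CPM). Clec4f was 22.8 CPM in HSD 2 and 33.2 CPM in HSD 1, and Cd5l 39.5 and 58.3 CPM. Both libraries carry the same labels, and with 2 libraries in the group no test separates them.

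Profiles over the 15 libraries showed how closely single markers followed their set. The measure was the root mean square difference, on the centred log2 scale, between a gene's profile and the mean profile of a set, so a small value means a like profile. It is a description, since members enter their own mean. To the resident mean, Timd4 (0.25) and Vsig4 (0.26) were nearest and Marco (0.84) farthest. To the general mean, Lyz2 (0.12) and Csf1r (0.18) were nearest and Pla2g7 (0.44) farthest among the general markers, whereas Cd5l (0.26), counted as resident, was nearer to it than Adgre1 (0.31). Among all other genes tested, the 5 nearest to the resident mean were Cfp, the complement factor properdin (0.33), Wfdc17 (0.35), C1qc and C1qb, chains of complement C1q made by macrophages (0.36 and 0.37), and AB124611 (0.37), against a median of 0.91 over genes. The 5 nearest to the general mean were the IgG receptor genes Fcgr4 and Fcgr3 (both 0.18), Cd300ld (0.20), the leukocyte integrin gene Itgb2 (0.21) and Cd300e (0.21), against a median of 0.77.

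The wider macrophage program was read from lists of related genes. In KO NSD over WT NSD, 51.2% of all genes were above 0 and 0.238% were called higher. At an unadjusted p under 0.05 by edgeR, 8.64% of all genes were higher. Other Kupffer cell genes, among them Cd163, Folr2 and the C1q chains, were above 0 in KO NSD over WT NSD livers for 9 of 9 genes, 8 at an unadjusted p under 0.05 and 0 called, with a median log2 fold change of 1.42. C1qc read 135, 43.9 and 90.1 CPM in KO NSD livers, against 24.5, 34.3 and 19.2 CPM in WT NSD livers (1.80, adjusted p = 0.104). Clec1b, which encodes the lectin CLEC-2, was at 1.30 (adjusted p = 0.109). Transcription factors of Kupffer cell identity gave a mixed list, with 8 of 11 above 0, 5 of 11 at an unadjusted p under 0.05, 0 called and a median of 0.45. The list ran from -0.51 to 2.37. Spi1, encoding PU.1, read 22.7, 8.14 and 16.3 CPM in KO NSD livers, against 5.31, 4.81 and 3.92 CPM in WT NSD livers (1.76, adjusted p = 0.0762). Spic, a PU.1 relative needed by iron-recycling macrophages, was at 2.37 (adjusted p = 0.09). In the fit with KO NSD 2 as the lone KO NSD library, the median was 0.52 for the other Kupffer cell genes (C1qc 0.74, Clec1b 0.68) and -0.19 for the transcription factors, with 5 of 11 above 0 (Spi1 0.78, Spic 1.09).

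Signals of the Kupffer cell niche and their receptors were above 0 for 7 of 7 genes tested (of 8 in the list), with 5 at an unadjusted p under 0.05, 0 called and a median of 0.84. The shares over all genes were 51.2% above 0 and 8.64% higher at that unadjusted p. Csf1, the growth factor of macrophages, read 26.2, 17.5 and 20.5 CPM in KO NSD livers, against 15.4, 12.7 and 9.77 CPM in WT NSD livers. Tgfb1 was at 1.16 (adjusted p = 0.119), and Csf2ra, a receptor chain for GM-CSF, at 1.09 (adjusted p = 0.139). The median was 0.35 with KO NSD 2 as the lone KO NSD library, and 5 of the 8 genes then tested were above 0 (Tgfb1 0.47, Csf2ra 0.43). In KO HSD over WT HSD livers the same list had 3 of 7 above 0, against 47.2% of all genes, and a median of -0.37.

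Beside the 5 neutrophil genes, the lists of macrophage and monocyte genes held 5 called in KO NSD over WT NSD livers. Of all genes, 51.2% were above 0 and 0.238% were called higher in that comparison. Of 17 further macrophage genes tested (of 18 in the list), 15 were above 0 and 3 rose. C5ar1, the receptor for the complement fragment C5a, read 2.18, 2.82 and 1.76 CPM in KO NSD livers, against 0.457, 0.637 and 0.362 CPM in WT NSD livers (log2 fold change 2.2 ± 0.39, adjusted p = 0.0403). Cybb, the catalytic subunit of the phagocyte NADPH oxidase, rose by 1.84 ± 0.33 (adjusted p = 0.0433), and Sirpa, which encodes the receptor for CD47, by 1.26 ± 0.24 (adjusted p = 0.0454). Of 10 genes of recruited monocytes tested (of 11 in the list), 10 were above 0 and 2 rose. Itgam, the CD11b integrin, read 5.73, 3.38 and 5.08 CPM in KO NSD livers, against 0.914, 0.869 and 0.965 CPM in WT NSD livers (2.37 ± 0.31, adjusted p = 0.00784). Chil3, a chitinase-like protein of monocytes, neutrophils and activated macrophages, read 7.07, 6.42 and 4.49 CPM in KO NSD livers, against 0.400, 0.0579 and 0.904 CPM in WT NSD livers (3.72 ± 0.61, adjusted p = 0.0307). As with Pla2g7, KO NSD 2 stood with or near the other two for C5ar1 and Chil3. All 5 calls were lost without WT NSD 1 (adjusted p up to 0.164) and without WT NSD 2 (up to 0.178). For Itgam these were the only libraries of the 12 with that effect, whereas C5ar1, Cybb, Sirpa and Chil3 also lost their call without KO NSD 1 or KO NSD 3, without WT HSD 2, and, but for Chil3, without WT NSD 3. C5ar1 and Sirpa did so without WT HSD 1 too, and Sirpa without KO HSD 1. When KO NSD 2 was the lone KO NSD library, the list medians were 0.52 for macrophage and 1.11 for monocyte genes, with 0 called, and these 5 genes were at 2.51, 1.11, 0.65, 1.86 and 3.80 in the order named, with an adjusted p of 0.247 for C5ar1 and 0.656 for Sirpa. Monocyte genes were above 0 in KO HSD over WT HSD livers too, for 10 of 10 with a median of 1.15 and 5 at an unadjusted p under 0.05, but 0 were called (Chil3 2.89, adjusted p = 0.809). Of all genes in the same comparison, 47.2% were above 0 and 2.61% were higher at that unadjusted p. On high salt, neutrophil markers summed to 26.3 to 78.9 CPM in KO HSD livers, against 12.7 to 18.9 CPM in WT HSD livers.

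**Figure D5:**
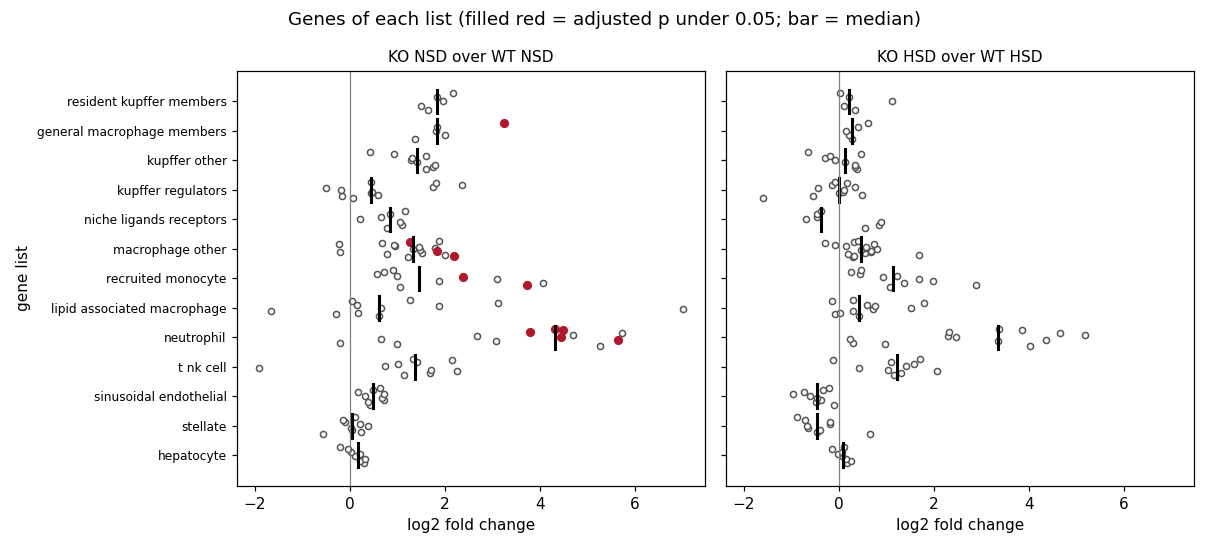
Log2 fold change of every tested gene of each list in KO NSD over WT NSD (left) and KO HSD over WT HSD (right); filled red points have an adjusted p under 0.05 and bars are list medians. On the left the medians of the 2 marker sets lie at 1.84 and that of neutrophil genes at 4.32; on the right the marker sets lie at 0.21 and 0.27 and no point is filled.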

How the data were processed

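Per the labels' protocols, poly(A) RNA of 15 mouse liver samples was sequenced. A single table deposited by the authors holds the expected counts of each gene, and a file for each library pairs them with a second column. That column was read from the values as FPKM, deposited by the authors; no label names its unit. Bowtie2 2.2.5, RSEM 1.2.8 and build mm10 are named in the submitters' processing notes; annotation and strandedness are not stated in the sources used here, so overlapping and antisense genes are uncertain. Of 18131 genes, 18009 matched RefSeq on GRCm38.p6, the assembly of mm10. All sample columns were used (0 left out).

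Expected counts were rounded and fitted with edgeR 4.0.16 (TMM, filterByExpr, robust quasi-likelihood F test, R 4.3.3), 12 libraries as 4 group means. A fit of 15 libraries served the additional set. Benjamini-Hochberg adjustment ran over the 13051 or 13864 genes tested, with a threshold of 0.05; all 10 members passed the filter in both fits. CPM used TMM over 15 libraries. Totals of 15726897 to 19539406 counts left a biological coefficient of variation of 0.272. The procedure was tested on simulated data. Alternatives were DESeq2 1.42.0, limma-voom (limma 3.58.1), RLE scaling, no filter, a replicate block, other sets of libraries and other pseudocounts than 0.5 CPM.

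A gene was left out of the list of transcription factors and is not reported here. Members, gene lists and tests were chosen with earlier results of these data known. Named were all members, companion genes past the threshold in any contrast or else the 2 with the smallest p of each list in KO NSD over WT NSD, the 5 genes nearest to each mean profile, Sirt3 and Lyz1. Cd163, Folr2, Csf1, Trem2 and Spp1 were added after their values were seen. Deviations of same-numbered libraries in WT HSD and WT NSD correlated at 0.214, 0.143 and 0.535. However, WT HSD 1 deviated most like WT NSD 2, and WT HSD 2 most like WT NSD 1. The numbers are thus not shown to pair these 6 libraries, and the block fit on them is an alternative only. In the other comparisons at least 1 same-numbered pair was under 0.1. The labels name no batch. The effective length of Alb was 2070 to 2071.5 bases in WT HSD 3, WT NSD 3 and the additional high salt libraries, and ran on from 2072.8 (KO NSD 3) to 2081 bases in the other 11 with no clear gap.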

Additional observations from a re-analysis of the deposited data

How the results depend on the processing

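All counts here are genes called at an adjusted p under 0.05 by edgeR unless another tool is named; the cause of a change was not tested. For KO NSD over WT NSD, 54 genes and 1 member in the main fit became 661 genes and 8 members with DESeq2, 29 with limma-voom, 98 with a replicate block (55 higher, 43 lower; Pla2g7 remained the called member), 106 with all 15 libraries in the fit, and 0 genes and 0 members with KO NSD 2 as the lone KO NSD library. For KO HSD over WT HSD, 0 became 29 with DESeq2. For WT HSD over WT NSD, 0 became 9 with DESeq2, 1 with a replicate block in the 6 wild-type libraries and 30 without WT HSD 3 and WT NSD 3, 2 alternatives chosen after seeing the data. For KO HSD over KO NSD, 0 became 50 with DESeq2 and 1 with a replicate block. For the difference of salt effects, 0 became 10 genes and 1 member with DESeq2 and 6 without WT HSD 3 and WT NSD 3. For the additional set, 3 became 30 with DESeq2 and 6 with limma-voom, and for its difference from the main wild type 0 became 36 with DESeq2. WT HSD minus WT NSD in resident against general markers was -0.28, and -0.11 without Pla2g7.

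Some uncalled members changed sign. In KO HSD over WT HSD, Vsig4 was -0.031 with limma-voom, and without WT HSD 3 and WT NSD 3 Clec4f was -0.14, Vsig4 -0.12, Csf1r -0.029 and Cd68 -0.11. Without the same pair, WT HSD over WT NSD gave Marco 1.18 and Adgre1 0.24. In the additional set Marco was -0.995 with limma-voom and with the replicate block, and -0.59 with limma-voom for its difference from the main wild type. With KO NSD 2 as the lone KO NSD library, KO HSD over KO NSD gave Cd5l 0.15 and Adgre1 0.057, and the difference of salt effects gave Marco 0.61 and Adgre1 0.095.

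With each library left out in turn, KO NSD over WT NSD called 5 (without WT NSD 2) to 420 genes (without KO NSD 2) and 0 to 8 members, and Pla2g7 lay between 2.91 and 3.65 with 0 adjusted p above 0.0987. Counts were 0 to 7 for KO HSD over WT HSD, 0 to 10 for WT HSD over WT NSD, 0 to 21 for KO HSD over KO NSD, 0 to 8 for the difference of salt effects, 1 to 5 for the additional set and 0 to 91 for its difference from the main wild type, with 0 members called in these 6. In KO HSD over WT HSD the ranges that crossed 0 were Adgre1 -0.10 to 0.68, Cd5l -0.085 to 0.95, Cd68 -0.11 to 0.85, Clec4f -0.44 to 0.51, Csf1r -0.30 to 0.60, Timd4 -0.28 to 0.59 and Vsig4 -0.52 to 0.41. In WT HSD over WT NSD they were Adgre1 -0.44 to 0.25, Cd5l -0.32 to 0.56, Clec4f -0.073 to 0.59, Lyz2 -0.043 to 0.74 and Marco -1.80 to 0.86. Marco ran from -2.48 to 0.36 in the difference of salt effects, -3.47 to 1.47 in the additional set and -2.66 to 2.32 in its difference from the main wild type. Timd4 in the additional set ran from -3.42 to 0.07, and Adgre1 in its difference from the main wild type from -0.50 to 0.15. The difference of resident and general markers ran from -0.33 to 0.01 in KO NSD over WT NSD, -0.11 to 0.09 in KO HSD over WT HSD, -0.38 to -0.20 in WT HSD over WT NSD, -0.30 to 0.05 in KO HSD over KO NSD and -1.47 to 0.36 in the additional set. With 3 libraries a group, an exact permutation test of a single value cannot go below 0.1, so p-values come only from the fits across all genes. Low counts limit Pla2g7 most.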

Other observations

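Gpnmb, a glycoprotein gene of lipid-laden macrophages that was on the list of lipid-associated macrophage genes, did not follow the other macrophage markers. It read 14.2, 37.0 and 46.2 CPM in KO HSD livers and 37.4, 24.2 and 38.4 CPM in KO NSD livers, against 41.0, 17.7 and 0.371 CPM in WT HSD livers and 0.171, 0.290 and 0.301 CPM in WT NSD livers. The additional wild-type libraries read 0.836 and 1.11 CPM (high salt) and 0.524 CPM (normal salt). The 15 values thus fell into 8 at 14.2 CPM or more and 7 at 1.11 CPM or less, with no library in between, and WT HSD 3 lay with the low values while WT HSD 1 and WT HSD 2 lay with the high ones. The log2 fold change was 7.01 ± 1.48 in KO NSD over WT NSD (adjusted p = 0.0738) and 6.24 in WT HSD over WT NSD (adjusted p = 1). Of the other genes of that list, Lgals3, a galectin of macrophages, was at 1.87 in KO NSD over WT NSD (adjusted p = 0.0762), Trem2 at 1.27 and Spp1, which bile duct cells also make, at 0.04. Over the list of 11 genes, 9 were above 0 (51.2% of all genes) and 4 were higher at an unadjusted p under 0.05 (8.64% of all genes). The list held 0 called and had a median of 0.62. The median was 0.06 with KO NSD 2 as the lone KO NSD library, with Gpnmb at 6.53 and Lgals3 at 1.0.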
